A study of Bos taurus with 18 samples.

Results

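The genes described here are 37 genes by which T cells and natural killer cells are recognised, chosen by name and not by their values. Each was read from the brightest probe set that the array annotation gives to that gene alone, and 36 of the 37 were measured, out of 18010 genes with such a probe set. IL2RB, a chain of the interleukin-2 and interleukin-15 receptors, was not matched and was not analysed here. Each of the 36 had 1 such probe set.

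The tissue was epididymis of 6 Holstein bulls, aged 51 to 71 months, cut into caput (head), corpus (body) and cauda (tail). The bulls were grouped by the share of inseminated cows not returning to service after 56 days, which rested on 282 to 486 first inseminations per bull, into 3 of high and 3 of medium-low fertility. This gave 18 arrays in 6 groups of 3: high fertility caput, high fertility corpus, high fertility cauda, medium-low fertility caput, medium-low fertility corpus and medium-low fertility cauda. No bull was treated, the organs came from a slaughterhouse on ice, and all groups share breed, source and sexual maturity. The labels do not tie an array to a bull, so 6 arrays of a segment come from 6 bulls but the 3 arrays of a bull could not be linked by label. The p-values treat all arrays as separate samples. Once group means were removed, 17 of the 18 arrays correlated best with arrays of their own replicate number. A fit with that number as a block is given at the end, where it kept all member calls and added some. Fertility was a field record of each bull and not an experimental change, and medium-low is a span rather than a single level.

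T cells recognise peptides through a receptor that signals through the CD3 chains, and they depend on coreceptors, a kinase cascade and a second, costimulatory signal to become active. Cytotoxic T cells and natural killer cells kill through granules that carry perforin and granzymes, while regulatory T cells restrain responses. In the epididymis, lymphocytes lie within and beneath the epithelium, next to sperm that first appear at puberty and carry antigens the immune system did not meet earlier in life.

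All values below are log2 signals as deposited, on an array whose values ran from 2.56 to 14.5. No detection call comes with them, so a low signal can be background, and signals of different genes are not compared as amounts. The members' means over the 18 arrays ran from 3.70 for GNLY to 9.08 for GATA3. Only 9 of the 36 members lay above the median signal of all probe sets, 7.33. These are whole pieces of tissue, so fewer cells of a type and less RNA per cell cannot be told apart. A difference is called when its adjusted p is under 0.05 in limma's moderated test, with Benjamini-Hochberg adjustment over all 26773 probe sets.

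Some arrays stood apart from others with the same label and touch the results. The caput defensin DEFB122A read 4.53 and 3.99 in medium-low fertility caput replicates 1 and 2, whereas the remaining 4 arrays of this segment ranged from 12.2 to 12.6. The cystatin gene CST11 read 13.8 and 13.7 there, while the other 4 caput arrays lay at 7.55 to 8.53. The cauda receptor gene GPR50 read 8.32 in medium-low fertility cauda replicate 3, against 12.4 to 12.7 in the other 5 cauda arrays. The caput gene GPX5 read 9.97 and 10.8 in medium-low fertility corpus replicates 1 and 2, and 6.35 to 6.95 in the other 4 corpus arrays. CST11 read 9.15 and 9.17 in these 2 corpus arrays, and 5.83 to 6.47 in the rest of the corpus. Arrays of medium-low fertility caput correlated at 0.951 to 0.980 with each other over all probe sets, and those of high fertility caput at 0.989 to 0.990. Called segment differences are therefore also given without the 2 caput arrays, and without the 2 corpus arrays where that ended a call. The second was a choice made after seeing the data. Either choice leaves replicate 3 as the only medium-low fertility array of that segment, with the same weight as the 3 high fertility arrays together. Its spread is then assumed to be that of the other groups. When limma weighted the arrays, medium-low fertility caput replicate 3 had the lowest weight, at 0.246.

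The CD3 chains are encoded by 3 neighbouring genes with no other coding gene between them, CD3E, CD3D and CD3G, and their signals varied together over the arrays. CD3E, a signalling chain every T cell receptor needs, read 8.55, 8.98 and 9.25 in high fertility caput, 9.01, 8.48 and 8.42 in high fertility corpus and 8.25, 8.17 and 8.43 in high fertility cauda. In the medium-low fertility bulls it read 8.25, 7.52 and 8.98 in caput, 8.80, 8.29 and 8.65 in corpus and 8.48, 7.49 and 8.24 in cauda. The 2 lowest arrays were thus medium-low fertility cauda replicate 2 and caput replicate 2, and the segments overlapped. CD3D read 8.19, 8.86 and 8.89 in high fertility caput, 8.82, 7.89 and 8.22 in corpus and 7.57, 7.66 and 7.88 in cauda. In the medium-low fertility bulls CD3D read 7.68, 7.00 and 8.46 in caput, 8.43, 7.59 and 8.15 in corpus and 8.01, 6.87 and 7.70 in cauda. The same 2 arrays were lowest for CD3D, and high fertility caput replicate 3 was highest for both genes. CD3G read 6.69, 6.79 and 7.49 in high fertility caput and 6.17, 5.77 and 6.63 in medium-low fertility caput. Over corpus and cauda CD3G lay between 6.00 and 7.11.

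**Figure D1:**
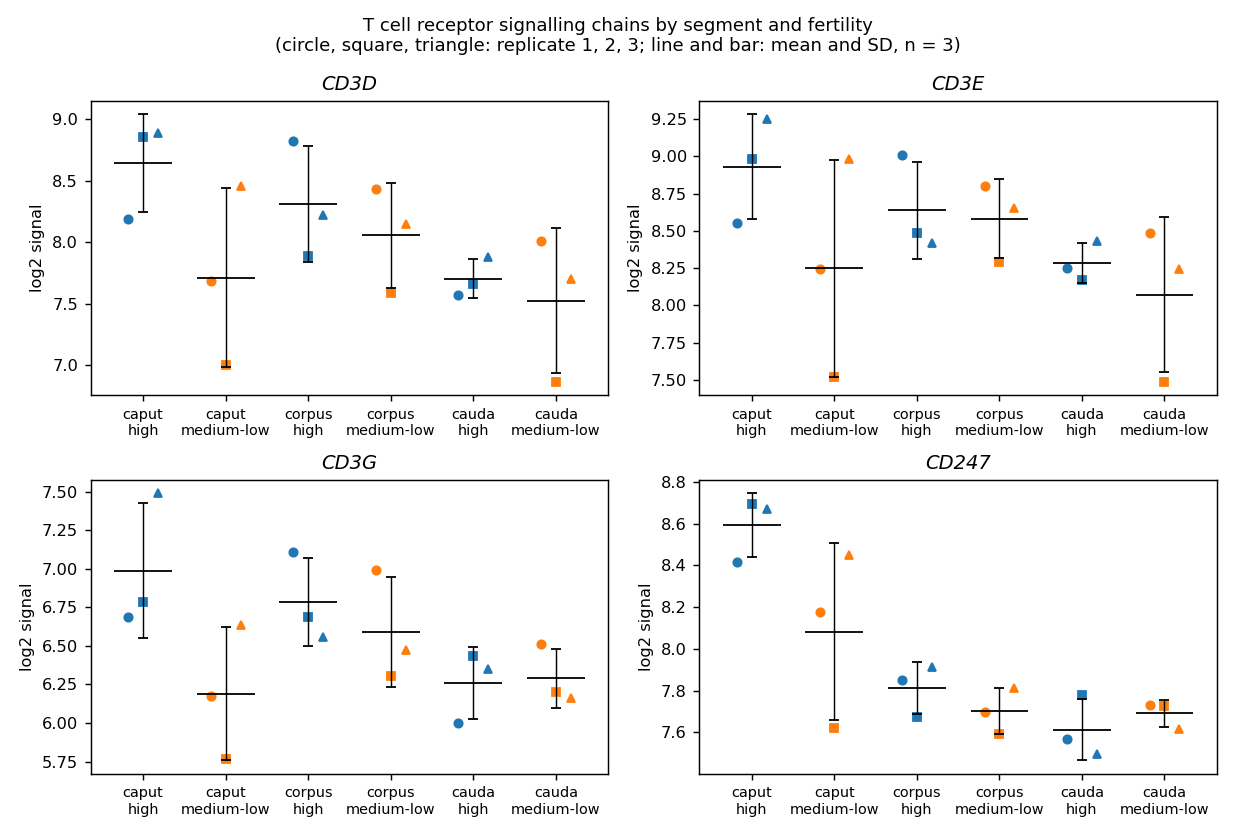
Log2 signal of CD3D, CD3E, CD3G and CD247 by segment in high (blue) and medium-low (orange) fertility arrays, with circles, squares and triangles for replicates 1, 2 and 3 and with the mean and SD of each group (n = 3). CD3D, CD3E and CD3G spread widely in medium-low fertility caput, where replicate 2 is lowest at 7.00, 7.52 and 5.77, while CD247 is highest in the caput of both fertility groups.

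None of CD3D, CD3E and CD3G was called between segments with all arrays. CD3E averaged 8.59 ± 0.635 (SD, n = 6) in caput, 8.61 ± 0.266 (SD, n = 6) in corpus and 8.18 ± 0.359 (SD, n = 6) in cauda. Its cauda minus caput difference was -0.41 (95% interval -0.90 to 0.07, limma adjusted p = 0.190). The corresponding values were -0.56 (-1.12 to -0.01, limma adjusted p = 0.116) for CD3D and -0.31 (-0.70 to 0.07, limma adjusted p = 0.206) for CD3G. Without the 2 medium-low fertility caput arrays that stood apart, the differences were larger, at -0.94 for CD3D, -0.78 for CD3E and -0.54 for CD3G. Replicate 3 was then the only medium-low fertility caput array, and it read above replicates 1 and 2 for each of these genes.

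CD247, the zeta chain that carries most of the receptor's signalling motifs, was called lower in corpus and in cauda than in caput. Its cauda minus corpus difference was -0.10 (limma adjusted p = 0.561). Over the 18 arrays its Pearson correlation with CD3E was 0.59. CD247 read 8.42, 8.70 and 8.67 in high fertility caput and 8.18, 7.62 and 8.45 in medium-low fertility caput. In the corpus it read 7.85, 7.67 and 7.91 in high and 7.70, 7.59 and 7.81 in medium-low fertility bulls. In the cauda it read 7.57, 7.78 and 7.49 in high and 7.73, 7.73 and 7.62 in medium-low fertility bulls. Apart from medium-low fertility caput replicate 2 at 7.62, every caput array lay above every corpus and cauda array. CD247 fell by 0.58 from caput to corpus (SE 0.115, limma adjusted p = 0.00137), from 8.34 ± 0.399 to 7.76 ± 0.122 (SD, n = 6 each). From caput to cauda it fell by 0.69 (SE 0.115, limma adjusted p = 0.000286), to 7.65 ± 0.110 (SD, n = 6). In high fertility arrays alone the caput to corpus difference was -0.78 (limma adjusted p = 0.00376) and in medium-low fertility arrays alone -0.38 (limma adjusted p = 0.123). From caput to cauda it was -0.98 in high fertility arrays alone (limma adjusted p = 0.000449) and -0.39 in medium-low fertility arrays alone (limma adjusted p = 0.108). Without the 2 caput arrays the differences to corpus and cauda were -0.77 and -0.87, with replicate 3 as the only medium-low fertility caput array.

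Across the 36 members, segment calls were few and small. Between caput and corpus 4 members were higher in corpus and 2 lower, where 19.5% of all probe sets were called higher and 13.7% lower. The members' median difference was 0.13 and that of all probe sets 0.06. Between caput and cauda 1 member was higher in cauda and 4 lower, against 17.2% and 15.1% of all probe sets, with a members' median of -0.07 and 0.03 over all probe sets. Between corpus and cauda no member was higher and 4 were lower, against 12.1% and 12.3%, with medians of -0.21 and -0.04. The members' counts were near or under the background in each comparison. Of the 36 members, 28 had a positive difference from caput to corpus and 32 a negative one from corpus to cauda, which are signs of mostly uncalled values. The signs of all probe sets are not given beside them. With array medians subtracted, quantile normalization or cyclic loess on top, the members' median was 0.06, 0.06 and 0.03 from caput to corpus. From corpus to cauda it was -0.19, -0.16 and -0.15.

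**Figure D2:**
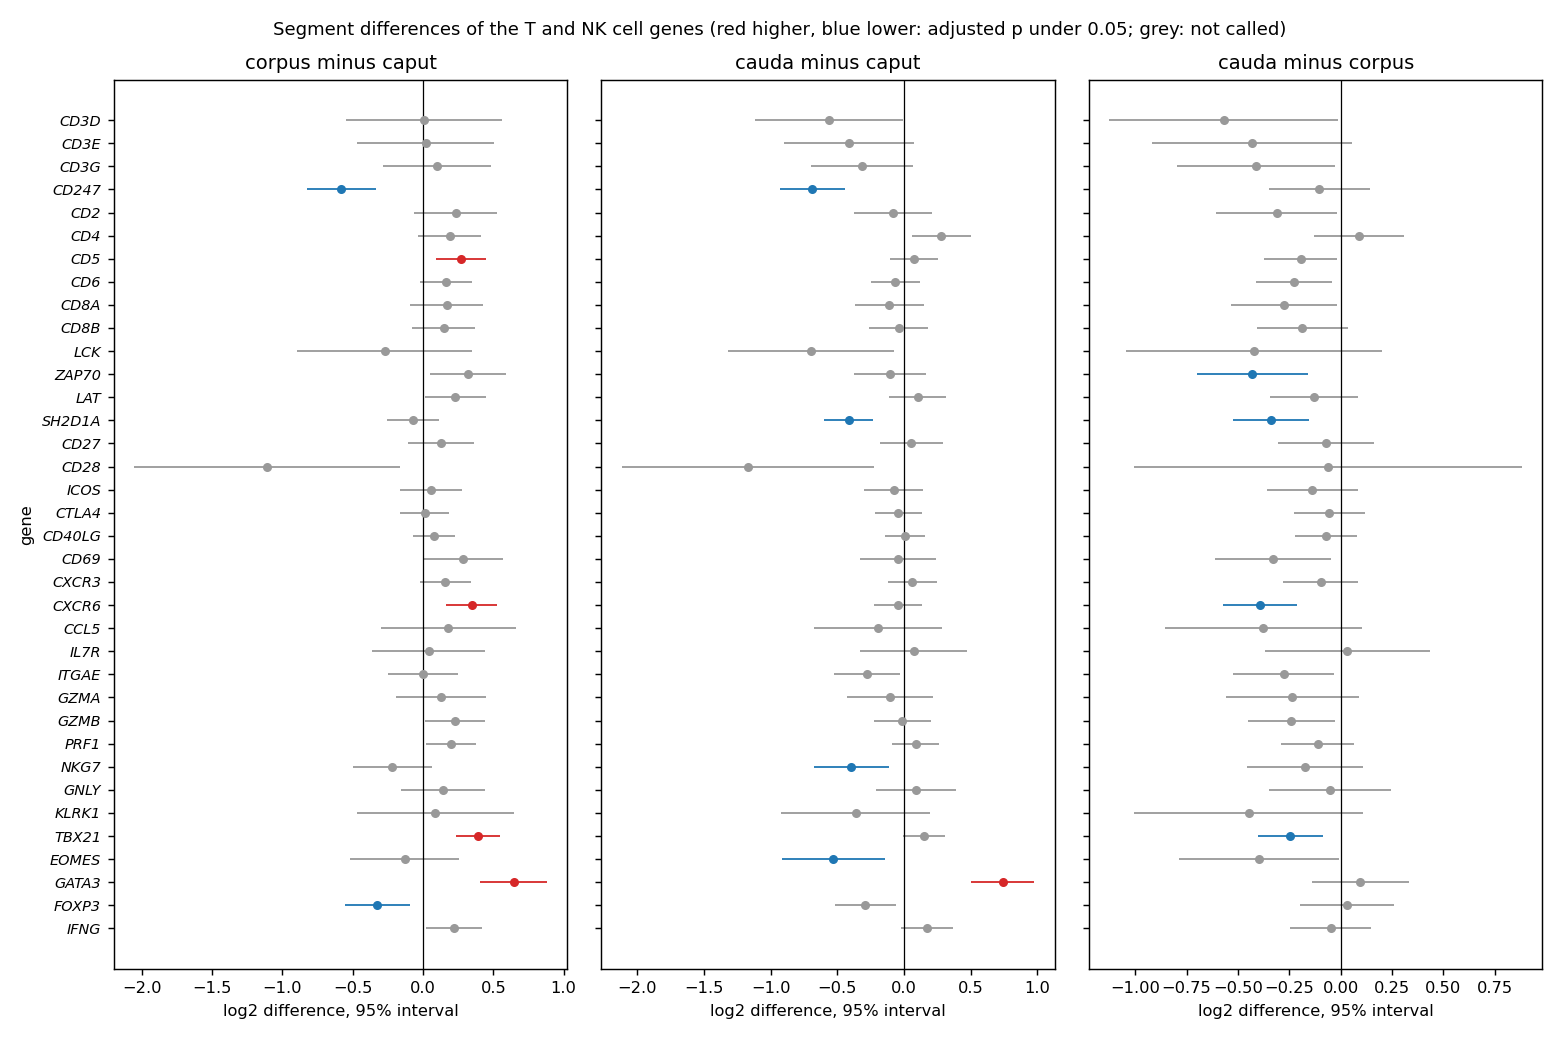
Log2 differences between segments for each member, averaged over both fertility groups, with 95% intervals, in red or blue where the difference was called higher or lower and in grey where it was not. Most intervals include 0, and the largest called differences are those of GATA3 (0.64 and 0.74) and CD247 (-0.58 and -0.69).

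Smooth muscle and endothelial genes moved along the duct with larger median differences than the members. All 9 measured smooth muscle genes were called higher in cauda than in caput, with a median difference of 1.44, and 11 of 12 endothelial genes, with a median of 0.79. Of all probe sets, 17.2% were called higher and 15.1% lower there. The mean of the smooth muscle genes ran from 10.4 to 10.8 over the caput arrays and from 11.4 to 12.4 over the cauda arrays. Of 18 general leukocyte genes, 2 were called higher and 4 lower in cauda than in caput, and their array means ran from 7.74 to 8.15 in caput, 8.19 to 8.41 in corpus and 7.93 to 8.35 in cauda. Of 11 epithelial genes, 3 were called higher and 3 lower, with a median of 0.00. Of 18 B and plasma cell genes, 6 were called higher and 2 lower in cauda than in caput, and of 25 genes of mononuclear phagocytes 3 each way. Their part in the members' differences was not tested.

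Among coreceptors and surface proteins, only CD5 was called in any comparison. CD5, which restrains receptor signalling, read 6.47, 6.44 and 6.34 in high fertility caput and 6.45, 6.32 and 6.54 in medium-low fertility caput. In the corpus it read 6.79, 6.61 and 6.74 in high and 6.91, 6.50 and 6.63 in medium-low fertility bulls. Only medium-low fertility corpus replicate 2 fell within the caput's range. CD5 rose by 0.27 from caput to corpus (SE 0.0837, limma adjusted p = 0.0224). The call was lost without any of high fertility caput replicate 3, high fertility corpus replicate 1, medium-low fertility caput replicate 2 or medium-low fertility corpus replicate 1, with adjusted p of 0.0519 to 0.0593 in limma, at 0.22 without both caput arrays (limma adjusted p = 0.126) and at 0.25 without the 2 corpus arrays (limma adjusted p = 0.0835). In high and in medium-low fertility arrays alone it was not called (limma adjusted p = 0.0964 and 0.171). CD6, its neighbour in the genome and a receptor for ALCAM, differed by 0.16 from caput to corpus (limma adjusted p = 0.166). CD4, the coreceptor of helper T cells, ran from 5.18 to 6.20 over all arrays and its cauda minus caput difference of 0.28 missed the threshold (95% interval 0.06 to 0.50, limma adjusted p = 0.0523).

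CD8A and CD8B, the chains of the cytotoxic T cell coreceptor, were not called. CD8A averaged 6.88 ± 0.356 in caput, 7.05 ± 0.146 in corpus and 6.77 ± 0.150 in cauda (SD, n = 6 each). CD8B averaged 6.14 ± 0.188 in caput, 6.29 ± 0.154 in corpus and 6.10 ± 0.228 in cauda (SD, n = 6 each). CD2, an adhesion receptor for CD58, ran from 4.98 to 5.92, and its cauda minus corpus difference was -0.31 (95% interval -0.60 to -0.02, limma adjusted p = 0.116).

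The kinases and adaptors next to the receptor did not move together. ZAP70, the kinase that binds the phosphorylated CD3 and zeta chains, read 7.84, 7.54 and 7.49 in high fertility corpus and 7.30, 7.33 and 7.33 in medium-low fertility corpus. In cauda it read 7.03, 6.88 and 7.10 in high and 7.21, 6.82 and 7.19 in medium-low fertility bulls. All corpus arrays lay above all cauda arrays. ZAP70 fell by 0.43 from corpus to cauda (SE 0.127, limma adjusted p = 0.0215). The adjusted p in limma rose to 0.0575 without high fertility corpus replicate 1, to 0.0520 without high fertility cauda replicate 2 and to 0.0575 without medium-low fertility cauda replicate 2. Without the 2 corpus arrays the difference was -0.44 (limma adjusted p = 0.101). It was -0.62 in high fertility arrays alone and -0.24 in medium-low fertility arrays alone (limma adjusted p = 0.0305 and 0.464).

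SH2D1A, an adaptor of the SLAM family receptors of T and natural killer cells, was lower in cauda than in both other segments. It read 6.22, 6.06 and 6.23 in high and 5.95, 5.80 and 6.04 in medium-low fertility caput, and 5.89, 6.12 and 5.91 in high and 6.19, 5.79 and 5.96 in medium-low fertility corpus. In cauda it read 5.69, 5.77 and 5.47 in high and 5.80, 5.56 and 5.54 in medium-low fertility bulls. The highest cauda array, at 5.80, reached the lowest arrays of the other segments. SH2D1A fell by 0.41 from caput to cauda (SE 0.0861, limma adjusted p = 0.00166) and by 0.34 from corpus to cauda (limma adjusted p = 0.00933). The first difference was -0.47 without the 2 caput arrays and -0.30 in medium-low fertility arrays alone (limma adjusted p = 0.101 for the latter). The second was not called with quantile normalization or cyclic loess on top (limma adjusted p = 0.0501 and 0.0595), nor in high or medium-low fertility arrays alone (limma adjusted p = 0.0864 and 0.0882). LAT, the membrane scaffold that ZAP70 phosphorylates, was not called and averaged 6.97 ± 0.234 in caput, 7.20 ± 0.107 in corpus and 7.07 ± 0.117 in cauda (SD, n = 6 each).

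LCK was set apart by 1 array and CD28 by 2. LCK, the kinase that starts receptor signalling, read 9.91 in medium-low fertility caput replicate 1, which was 2.07 above the highest of the other 17 arrays. Its other 2 medium-low fertility caput arrays read 7.78 and 7.57, and high fertility caput read 7.52, 7.47 and 7.60. CD28, the main costimulatory receptor of T cells, read 9.06, 6.62 and 5.08 in medium-low fertility caput and 4.93, 4.23 and 4.56 in high fertility caput. Its remaining 12 arrays, of corpus and cauda, lay between 4.32 and 5.00, near the low end of the array's range. Replicate 1 was thus 2.44 above replicate 2, which in turn lay above every remaining array. In replicate 1 CD3E at 8.25 and CD3D at 7.68 lay below all 3 high fertility caput arrays, and CTLA4 and ICOS, which neighbour CD28 in the genome, ran from 5.94 to 6.42 and from 4.76 to 5.46 over all arrays.

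**Figure D3:**
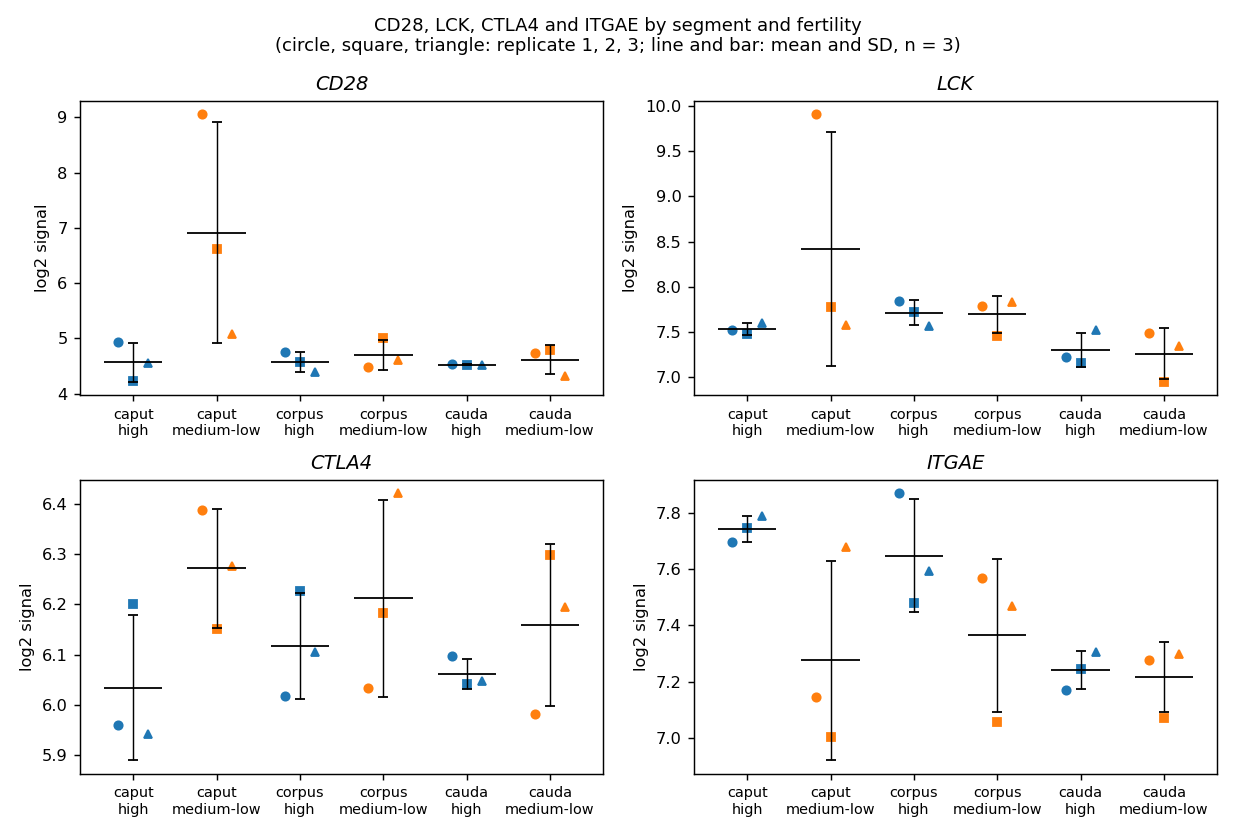
Log2 signal of CD28, LCK, CTLA4 and ITGAE by segment in high (blue) and medium-low (orange) fertility arrays, with circles, squares and triangles for replicates 1, 2 and 3 and with the mean and SD of each group (n = 3). CD28 (9.06) and LCK (9.91) stand far above all other arrays in medium-low fertility caput replicate 1, CTLA4 does not, and ITGAE is lowest in replicates 1 and 2 of that group among the caput arrays.

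With all arrays, CD28 differed by -1.11 from caput to corpus (95% interval -2.05 to -0.16, limma adjusted p = 0.0671) and by -1.17 from caput to cauda (-2.12 to -0.23, limma adjusted p = 0.0558). Without the 2 caput arrays that stood apart, these were -0.19 and -0.25 (limma adjusted p = 0.390 and 0.264). LCK differed by -0.70 from caput to cauda (95% interval -1.32 to -0.07, limma adjusted p = 0.0827) and by -0.27 without those arrays (limma adjusted p = 0.129). The transcription factor gene LEF1, which is not a member, also stood out there, at 11.9 and 11.1 in medium-low fertility caput replicates 1 and 2 and 7.20 to 7.54 in the remaining arrays of caput.

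None of the other costimulation and activation genes was called. CTLA4, the inhibitory counterpart of CD28, averaged 6.15 ± 0.176 in caput, 6.16 ± 0.150 in corpus and 6.11 ± 0.116 in cauda (SD, n = 6 each). CD69, an early activation and tissue retention marker, averaged 5.44 ± 0.268 in caput, 5.73 ± 0.181 in corpus and 5.40 ± 0.201 in cauda (SD, n = 6 each). Its corpus minus caput difference was 0.28 (95% interval 0.00 to 0.57, limma adjusted p = 0.116). ICOS, a later costimulatory receptor, differed by at most 0.14 in size between segments. CD27, a receptor for CD70, and CD40LG, by which helper T cells activate B cells, differed by at most 0.13 in size between segments.

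Of the homing and cytokine receptors, CXCR6 was higher in corpus than in both other segments. CXCR6, the receptor for CXCL16 on tissue-resident T cells, read 6.67, 6.41 and 6.39 in high and 6.75, 6.36 and 6.73 in medium-low fertility corpus. In caput it read 6.26, 6.20 and 6.32 in high and 6.26, 5.93 and 6.27 in medium-low fertility bulls. In cauda it read 6.12, 6.14 and 6.04 in high and 6.27, 6.14 and 6.25 in medium-low fertility bulls. Every corpus array lay above every array of the other segments. CXCR6 rose by 0.35 from caput to corpus (SE 0.0843, limma adjusted p = 0.00578) and fell by 0.39 from corpus to cauda (limma adjusted p = 0.00306). Cyclic loess on top of the deposited values ended the call from caput to corpus, at a limma adjusted p of 0.0889. The difference was 0.29 without the 2 caput arrays. It was 0.23 in high and 0.46 in medium-low fertility arrays alone (limma adjusted p = 0.194 and 0.0152). Its ligand gene CXCL16 did not follow the same order, at 9.35 ± 0.278 in caput, 9.32 ± 0.149 in corpus and 9.93 ± 0.102 in cauda (SD, n = 6 each), and rose by 0.58 from caput to cauda (limma adjusted p = 0.00089).

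ITGAE, the integrin chain that binds E-cadherin on epithelium, was not called with all arrays. It read 7.69, 7.75 and 7.79 in high and 7.14, 7.00 and 7.68 in medium-low fertility caput. In cauda it read 7.17, 7.25 and 7.31 in high and 7.28, 7.07 and 7.30 in medium-low fertility bulls. The 2 low caput arrays of the medium-low group lay among or below the cauda arrays and the other 4 above them. Its cauda minus caput difference was -0.28 (95% interval -0.53 to -0.03, limma adjusted p = 0.0797), and -0.48 without those 2 arrays, which leaves 1 medium-low fertility caput array. ITGAE was called lower in cauda in high fertility arrays alone, at -0.50 (limma adjusted p = 0.0393). In medium-low fertility arrays alone it was not called, at -0.06 (limma adjusted p = 0.849). The gene of its ligand E-cadherin, CDH1, read 10.7 ± 0.413 in caput and 10.9 ± 0.188 in cauda (SD, n = 6 each) and was not called. IL7R, the interleukin-7 receptor of resting T cells, differed by at most 0.07 in size between segments, while IL7 itself, a ligand gene and not a member, rose by 3.03 from caput to corpus (limma adjusted p = 4.67e-07). Its mean was 6.51 ± 0.552 in caput and 9.53 ± 0.218 in corpus (SD, n = 6 each). CXCR3, which draws effector T cells to interferon-induced chemokines, and CCL5, a chemokine of activated T cells, were not called.

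Of the cytotoxic and natural killer genes, 1 of 6 was called. NKG7, a granule membrane protein, read 7.81, 7.86 and 8.15 in high and 7.89, 7.79 and 7.97 in medium-low fertility caput. In cauda it read 7.58, 7.40 and 7.65 in high and 7.88, 6.96 and 7.62 in medium-low fertility bulls. Medium-low fertility cauda replicate 1 lay within the caput's range and replicate 2 was lowest of all. NKG7 fell by 0.39 from caput to cauda (SE 0.132, limma adjusted p = 0.0327). In high and in medium-low fertility arrays alone it was not called, at -0.40 and -0.39 (limma adjusted p = 0.153 and 0.165). The call was also lost with array weights and with only the arrays of the 2 segments (limma adjusted p = 0.0601 and 0.0594). The adjusted p in limma was 0.0512 to 0.0841 without any of high fertility caput replicate 3, high fertility cauda replicates 1 and 2, medium-low fertility caput replicates 1 and 3 and medium-low fertility cauda replicate 2. Without medium-low fertility cauda replicate 2 the difference was -0.26, and without the 2 caput arrays it was -0.44 (limma adjusted p = 0.0686).

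The killing proteins themselves were not called between segments. GZMB, a granzyme that starts apoptosis, averaged 7.16 ± 0.328 in caput, 7.38 ± 0.117 in corpus and 7.14 ± 0.0909 in cauda (SD, n = 6 each). PRF1, the pore-forming perforin, averaged 6.56 ± 0.259 in caput, 6.76 ± 0.0918 in corpus and 6.65 ± 0.102 in cauda (SD, n = 6 each). KLRK1, the activating receptor NKG2D, spread from 5.18 to 7.16, wider than most members, and its cauda minus corpus difference was -0.45 (95% interval -1.01 to 0.11, limma adjusted p = 0.241). GZMA at 4.12 to 5.18, GNLY at 3.43 to 4.32 and IFNG at 3.89 to 4.57 lay near the low end of the array's range, where differences say little about amounts of RNA. IFNG encodes interferon gamma. Of 15 measured genes that it induces, 2 were called higher and 1 lower in cauda than in caput, against 17.2% and 15.1% of all probe sets.

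The lineage transcription factor genes GATA3, TBX21, EOMES and FOXP3 were each called in at least 1 comparison between segments. Of all probe sets, 12.1% to 19.5% were called in each direction of such a comparison. GATA3, which directs helper T cells toward type 2 and is also made by epithelium of the duct from which the epididymis develops, showed the largest called differences of the 36 members. It read 8.45, 8.56 and 8.51 in high and 8.84, 9.11 and 8.28 in medium-low fertility caput. In corpus it read 9.55, 9.41 and 9.24 in high and 9.09, 9.11 and 9.21 in medium-low fertility bulls. In cauda it read 9.53, 9.49 and 9.36 in high and 9.29, 9.13 and 9.38 in medium-low fertility bulls. Caput lay below cauda in every array, and below corpus but for medium-low fertility caput replicate 2. GATA3 rose by 0.64 from caput to corpus (SE 0.111, limma adjusted p = 0.000453), from 8.62 ± 0.300 to 9.27 ± 0.178 (SD, n = 6 each). From caput to cauda it rose by 0.74 (limma adjusted p = 0.000105), to 9.36 ± 0.143 (SD, n = 6). Without the 2 caput arrays these were 0.88 and 0.97. Medium-low fertility caput then rested on replicate 3, the lowest of all arrays at 8.28. From caput to corpus the difference was 0.89 in high fertility arrays alone and 0.40 in medium-low fertility arrays alone (limma adjusted p = 0.00112 and 0.0966). From caput to cauda it was 0.95 and 0.53 (limma adjusted p = 0.000415 and 0.0268). The direction was opposite to that of CD247, and the array correlation of GATA3 with CD3E was below 0.

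TBX21 (T-bet), which directs type 1 helper and cytotoxic programmes, was highest in corpus. It read 6.72, 6.65 and 6.53 in high and 6.81, 6.78 and 6.78 in medium-low fertility corpus, against 6.24, 6.33 and 6.29 in high and 6.51, 6.13 and 6.42 in medium-low fertility caput. All corpus arrays lay above all caput arrays. TBX21 rose by 0.39 from caput to corpus (SE 0.0738, limma adjusted p = 0.000945), and the difference was 0.36 without the 2 caput arrays. It fell by 0.25 from corpus to cauda (limma adjusted p = 0.0245), where high fertility cauda read 6.51, 6.24 and 6.50 and medium-low fertility cauda 6.47, 6.61 and 6.46. That second call was lost in limma at adjusted p of 0.0511 to 0.0660 without any of high fertility corpus replicate 1, high fertility cauda replicate 2 and medium-low fertility cauda replicates 1 and 3. It was also lost without the 2 corpus arrays (limma adjusted p = 0.116), with quantile normalization or cyclic loess on top (0.0960 and 0.115) and in high or medium-low fertility arrays alone (0.201 and 0.116).

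EOMES, a T-box factor of cytotoxic and natural killer cells, was lower in cauda than in caput. It read 6.96, 6.84 and 7.66 in high and 6.98, 6.09 and 5.99 in medium-low fertility caput, and 6.10, 6.42 and 6.23 in high and 6.32, 6.09 and 6.18 in medium-low fertility cauda. EOMES fell by 0.53 from caput to cauda (SE 0.182, limma adjusted p = 0.0365). Its 2 lowest caput arrays, medium-low fertility replicates 2 and 3, lay among or below the cauda arrays. The difference was -0.90 in high fertility arrays alone (limma adjusted p = 0.0193) and -0.16 in medium-low fertility arrays alone (limma adjusted p = 0.741). The call was lost in limma at adjusted p of 0.0597 to 0.0993 without any of high fertility caput replicate 3, high fertility cauda replicates 1 and 3, medium-low fertility caput replicate 1 and medium-low fertility cauda replicates 2 and 3, and at -0.35 without the 2 caput arrays (limma adjusted p = 0.178).

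FOXP3, the factor of regulatory T cells, read 8.37, 8.46 and 8.44 in high and 8.96, 8.80 and 8.36 in medium-low fertility caput. In corpus it read 8.39, 8.48 and 8.25 in high and 8.14, 7.87 and 8.32 in medium-low fertility bulls. Its 2 highest arrays were medium-low fertility caput replicates 1 and 2. FOXP3 fell by 0.32 from caput to corpus (SE 0.108, limma adjusted p = 0.0311), and the difference was -0.15 without these 2 arrays (limma adjusted p = 0.320) and -0.22 without the 2 corpus arrays (limma adjusted p = 0.243). From caput to corpus it was -0.05 in high fertility arrays alone and -0.60 in medium-low fertility arrays alone (limma adjusted p = 0.853 and 0.0139). The call was lost in limma at adjusted p of 0.0513 to 0.0809 without any of high fertility caput replicates 2 and 3, high fertility corpus replicates 1 and 3, medium-low fertility caput replicates 1 and 2 and medium-low fertility corpus replicate 2. The FOXP3 cauda minus caput difference of -0.29 just missed the threshold (limma adjusted p = 0.0504), and passed it without the 2 corpus arrays (limma adjusted p = 0.0482).

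**Figure D4:**
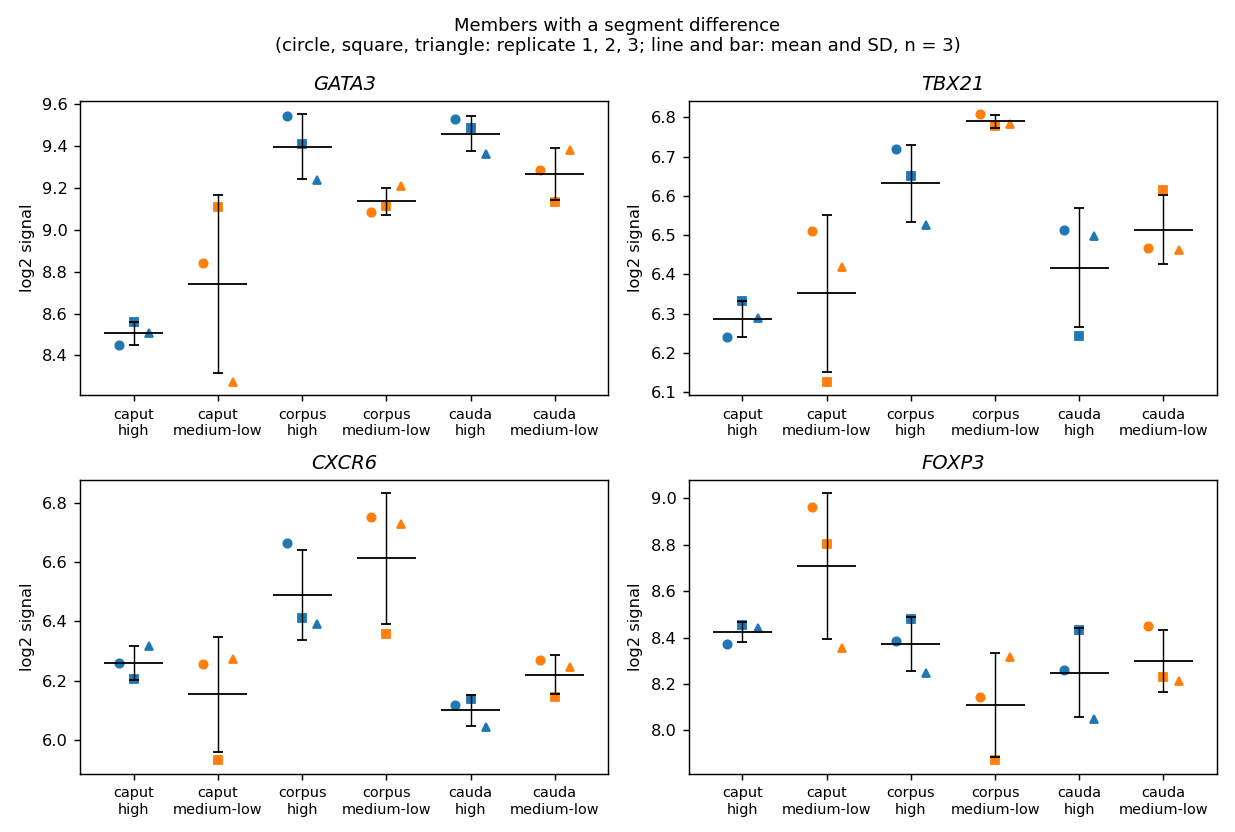
Log2 signal of GATA3, TBX21, CXCR6 and FOXP3 by segment in high (blue) and medium-low (orange) fertility arrays, with circles, squares and triangles for replicates 1, 2 and 3 and with the mean and SD of each group (n = 3). GATA3 is lowest in caput (mean 8.62), TBX21 and CXCR6 are highest in corpus (means 6.71 and 6.55), and FOXP3 is highest in medium-low fertility caput replicates 1 and 2 (8.96 and 8.80).

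Fertility was compared within each segment, and no member was called in any of them. In the caput no member was higher or lower in medium-low fertility bulls, where 0.0598% of all probe sets were called higher and 0.153% lower. Of the 36 members 10 had an unadjusted p under 0.05 in limma, against 20.8% of all probe sets. In the corpus no member was called, against 0% higher and 0.00374% lower, and 1 member had an unadjusted p under 0.05 in limma, against 4.41% of all probe sets. In the cauda no member was called, against 0% higher and 0.0112% lower, and none had an unadjusted p under 0.05 in limma, against 5.81%. The F test of whether the fertility difference varied between segments called no member either, against 0.00374% of all probe sets, so the segment differences given above for each fertility group alone were not shown to differ between the groups. The lowest unadjusted p of that F test among the members was 0.0347, for CD28, with an adjusted p of 0.554 in limma.

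**Figure D5:**
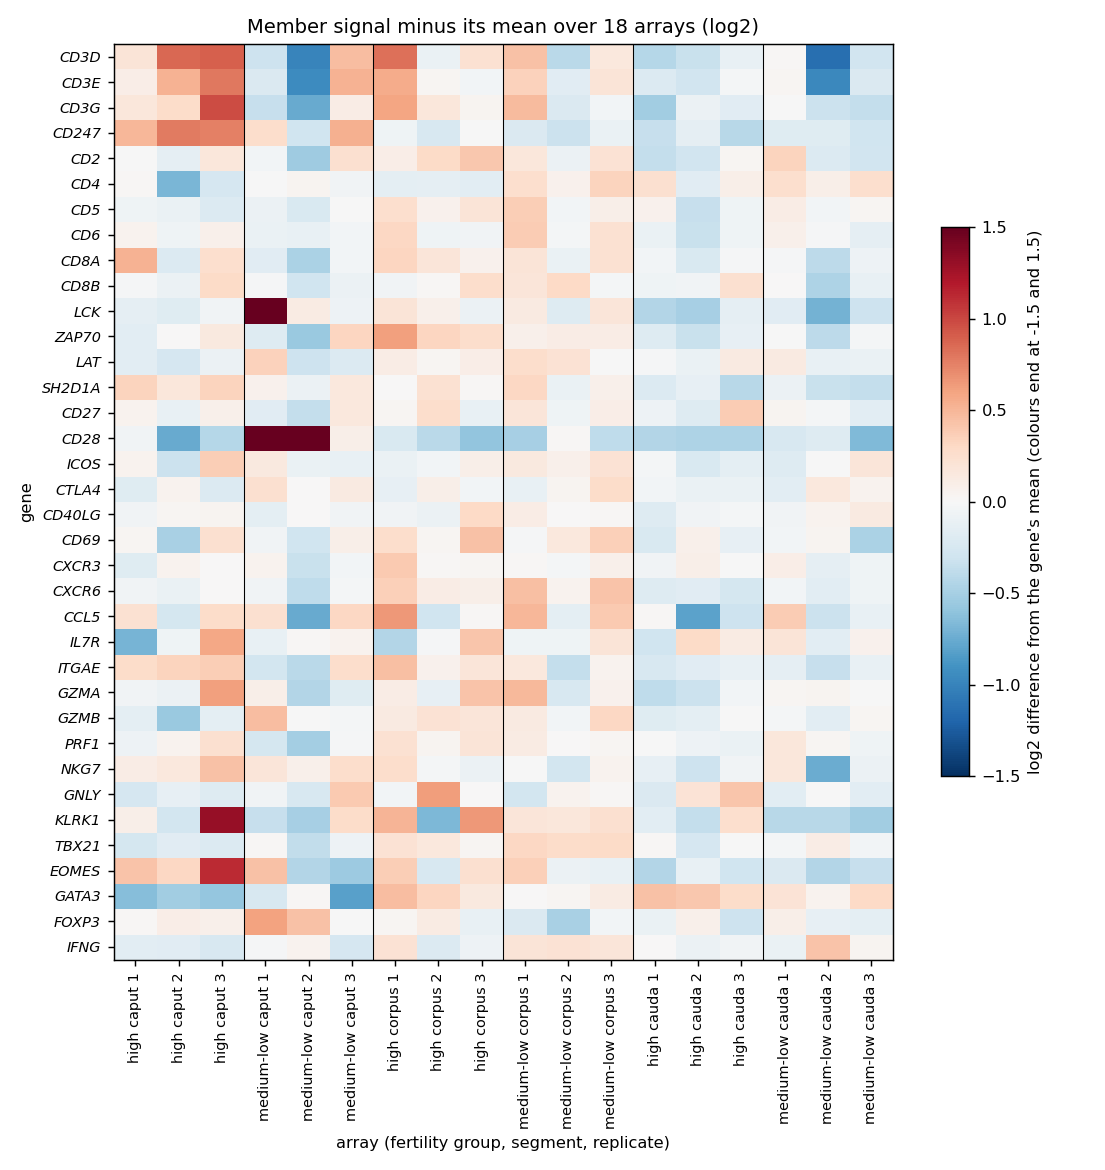
Each member's log2 signal minus its mean over the 18 arrays, with members in rows by role and arrays in columns by segment and fertility group; red is higher and blue lower than the member's mean. CD28 and LCK are red in medium-low fertility caput replicate 1, the array labelled medium-low fertility caput replicate 2 is lowest for 12 of the 36 members, and high fertility caput replicate 3 is highest for 11.

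The caput values of the 10 members were wide. CD28 was 2.34 higher in medium-low fertility caput (95% interval 1.01 to 3.68, limma adjusted p = 0.0684) and LCK 0.89 higher (0.01 to 1.77, limma adjusted p = 0.236). LCK rested on replicate 1, while all 3 CD28 arrays lay above high fertility caput. GZMB was 0.43 higher (0.12 to 0.73, limma adjusted p = 0.105), at 7.69, 7.22 and 7.20 against 7.08, 6.67 and 7.08, without overlap. In the other direction CD3D differed by -0.93 (-1.72 to -0.15, limma adjusted p = 0.162), CD3G by -0.80 (-1.34 to -0.26, limma adjusted p = 0.0949) and EOMES by -0.80 (-1.35 to -0.25, limma adjusted p = 0.0969). CD247 differed by -0.51, CD8A by -0.42, ITGAE by -0.47 and PRF1 by -0.33, with limma adjusted p between 0.0947 and 0.178. The intervals of these 4 genes and of CD3D, CD3G, EOMES and GZMB did not include 0 before adjustment, and none passed it.

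The caput comparison turned on which medium-low fertility array was included. Without the 2 arrays that stood apart, which leaves 1 array in that group whose spread is assumed to be that of the others, most of these differences shrank. CD28 then differed by 0.50, LCK by 0.04, GZMB by 0.25, CD3D by -0.19, CD3G by -0.36, CD247 by -0.14, CD8A by -0.23, ITGAE by -0.07 and PRF1 by -0.09. EOMES differed more, by -1.17, and CD3E, at -0.68 with all arrays, differed by 0.05. Without replicate 3, the caput array of that group with a high DEFB122A signal, 5 members were called higher (CD28 at 3.26, LCK at 1.31, GZMB at 0.51, GATA3 at 0.47 and FOXP3 at 0.46) and 6 lower (CD3D at -1.31, CD3E at -1.05, CD3G at -1.02, CD247 at -0.69, ITGAE at -0.67 and PRF1 at -0.45). In that setting 7.78% of all probe sets were called higher and 9.78% lower, so the change of setting moved calls over the whole array. These 2 arrays of a fertility group therefore differ from the third both in segment marker genes and in T cell genes, and fertility and this split cannot be told apart in the caput.

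In corpus and cauda the fertility differences of the members were at most 0.37 in size. In the corpus CD4 differed most, by 0.37 (95% interval 0.05 to 0.68), with a limma adjusted p of 1.00. CD3E differed by -0.06 (95% interval -0.74 to 0.63), CD8A by -0.08 (-0.45 to 0.28) and ZAP70 by -0.30 (-0.69 to 0.08). In the cauda KLRK1 differed most, by -0.36 (-1.15 to 0.43), followed by CCL5 at 0.35 (-0.33 to 1.03). CD3E there differed by -0.21 (-0.90 to 0.48), ITGAE by -0.03 (-0.38 to 0.33) and GZMB by 0.06 (-0.24 to 0.36). The intervals of CD3D, CD3E and CD3G all reached below -0.5 in both segments, so a lower value of that size in medium-low fertility bulls was not resolved with 3 arrays a group.

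The members did not follow a single pattern over the 18 arrays. The arrays share bulls and normalization, so correlations are a description. With CD3E, the Pearson correlation was 0.97 for CD3D (Spearman 0.93), 0.87 for ITGAE (Spearman 0.87) and 0.85 for CD3G (Spearman 0.87). It was 0.76 for ZAP70, 0.72 for NKG7, 0.68 for CD8A, 0.65 for CCL5, 0.64 for PRF1 and 0.63 for KLRK1. Without the 2 arrays farthest from the median of CD3E it was 0.95 for CD3D, 0.86 for ITGAE and 0.87 for CD3G, but 0.43 for CD8A and 0.08 for CD8B, which had 0.56 over all 18. Within segments, after removing each segment's mean, it was 0.96 for CD3D and 0.84 for ITGAE. Of the 35 other members, 17 had a correlation of at least 0.5 and 7 were below 0: IFNG at -0.46, GATA3 at -0.39, CD4 at -0.36, CD28 at -0.32, CTLA4 at -0.28, FOXP3 at -0.12 and GZMB at -0.06. The list therefore contains genes that track the CD3 chains and genes that do not, and the signal of the second kind was not shown to come from T or natural killer cells.

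Further T cell, natural killer cell and ligand genes, none of them members, were set beside the 36. Of 34 other T lineage and signalling genes, 8 were called higher and 3 lower in corpus than in caput, against 19.5% and 13.7% of all probe sets. In cauda 7 were higher and 6 lower than in caput, against 17.2% and 15.1%. Between corpus and cauda 2 were higher and 6 lower in cauda, against 12.1% and 12.3%. The largest were TCF7, a T cell transcription factor, which fell by 2.46 from caput to corpus, and SLAMF6, a SLAM family receptor, which rose by 1.99 from caput to corpus and fell by 1.81 from corpus to cauda. TCF7 read 11.0 to 11.4 in high fertility caput and 9.62, 9.54 and 11.1 in medium-low fertility caput, against 8.13 to 8.51 elsewhere. Of 22 other natural killer and cytotoxic genes, 1 was higher and 2 lower in corpus than in caput and 2 were lower in cauda than in caput, among them NCR3, an activating receptor, which fell by 1.21 and 1.29. Of 14 genes listed for gamma delta T cells, which are abundant in ruminants, 4 were measured. Among these 4, SOX13 rose by 1.20 from caput to corpus and fell by 0.92 from corpus to cauda. BLK fell by 0.25 from corpus to cauda. The signals of SOX13 and BLK were not shown to come from gamma delta T cells.

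Of 18 genes for ligands of the members, 2 were called higher in corpus than in caput, and 5 higher and 1 lower in cauda than in caput. The shares of all probe sets were 19.5% higher from caput to corpus, and 17.2% higher and 15.1% lower from caput to cauda. CD86, which binds CD28 and CTLA4 and is carried by antigen-presenting cells, rose by 0.85 from caput to cauda (limma adjusted p = 0.000155). Its mean was 6.60 ± 0.271 in caput and 7.45 ± 0.346 in cauda (SD, n = 6 each). ALCAM, the ligand of CD6 and also an adhesion protein of epithelium, fell by 2.06 from caput to cauda (limma adjusted p = 7.55e-06). Of 13 other T cell attracting chemokines, 2 were higher and 2 lower in cauda than in caput, among them CCL28, an epithelial chemokine, which fell by 2.12, and CX3CL1, which rose by 0.76. CD28 and CTLA4, which bind CD86, and CD6, which binds ALCAM, were not called from caput to cauda. CD28 lay close to the threshold there, at -1.17 (limma adjusted p = 0.0558).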

How the data were processed

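Total RNA (200 ng per array) was labelled with biotin by the Ambion WT Expression kit, per the labels' protocols. The authors deposited log2 signals, which they made with RMA per the submitters' processing notes. Affymetrix Expression Console and Partek 6.5 are listed there without a role. The annotation gave 1 symbol to 18457 of 26773 probe sets, several to 688 and none to 7628. No further normalization or filter was applied, and 0 value columns were left unused. The genome build is not given in the sources used here.

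All 18 arrays were fitted in limma 3.58.1 (R 4.3.3) as 6 group means, with moderated tests and Benjamini-Hochberg adjustment over all probe sets, after the procedure was tested on simulated data. Segment comparisons averaged both fertility groups. All members called in a comparison are named, with receptor chains, coreceptors, granule genes and transcription factors given in any case. From each other list up to 4 genes a comparison, by size, could be named, and GPR50, DEFB122A, CST11, CXCL16, CDH1, IL7, CD86 and LEF1 were named for their bearing on a result, after their values were seen. Members and lists were chosen with earlier results of these data known. The number of arrays limits precision.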

Additional observations from a re-analysis of the deposited data

How the results depend on the processing

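None of the 15 called member differences reversed under any alternative, while some uncalled ones changed sign, such as LCK from caput to corpus, at -0.27 with all arrays and 0.15 without the 2 medium-low fertility caput arrays. Also, the count of members called higher from corpus to cauda and in the corpus and cauda fertility comparisons stayed at 0. Members called higher from caput to corpus (4) became 1 without probe sets below the median signal of 7.33, which kept 9 of the 36 members. That setting left out CD5, CXCR6 and TBX21, so their calls were not tested there. The 4 became 2 with cyclic loess, 9 with array weights (22.1% of all probe sets) and 2 in medium-low fertility arrays alone. With an unadjusted p under 0.05 in limma and a 2-fold difference the count was 0. Those called lower (2) became 1 with the 2-fold rule, 1 without the 2 medium-low fertility caput arrays, 1 without these and the cauda array that stood apart, 1 without medium-low fertility corpus replicates 1 and 2, and 1 in high fertility arrays alone. From caput to cauda the members called higher (1) became 2 with array weights (19.1% of all probe sets), 0 with the 2-fold rule and 2 with 1 probe set per gene. Those called lower (4) became 7 with array medians subtracted, 7 with cyclic loess, 1 with the 2-fold rule, 2 in the 2 segments alone and 1 in medium-low fertility arrays alone. Counts that changed little are not listed, and the members behind them can differ. Without the 2 medium-low fertility caput arrays, the cauda minus caput difference went from -0.11 to -0.34 for ZAP70 and from -0.28 to -0.48 for ITGAE. For EOMES it went from -0.53 to -0.35. From corpus to cauda all 4 members called lower lay below the median signal. None of them was tested without probe sets of low signal. The count of members called lower became 2 with quantile normalization, 2 with cyclic loess and 7 with array weights (14.8% of all probe sets). It became 0 with the 2-fold rule, 8 in the 2 segments alone, 2 in high and 1 in medium-low fertility arrays alone. In the caput fertility comparison array weights called 3 members higher and 8 lower, the 2-fold rule 1 higher, and array weights called 3 members in the F test (6.49% of all probe sets). Array weights called 8.21% of all probe sets higher and 10.4% lower there. Same-numbered arrays of a fertility group correlated at over 0.1 in 17 of 18 pairs (lowest 0.0706, highest 0.550), 17 of 18 arrays correlated best with their own number, and the labels do not say that the numbers pair bulls; with the replicate block, 2 members were called higher and 7 lower from caput to cauda (19.5% and 17% of all probe sets), with all 15 calls kept. It added CD4, CD28, ITGAE and FOXP3 from caput to cauda (adjusted p in limma 0.0285, 0.0368, 0.0460 and 0.0325), ZAP70 and CD28 from caput to corpus (0.0400 and 0.0454) and CD6 from corpus to cauda (0.0419). Leaving out each array in turn gave 1 to 3 members lower from caput to corpus, 1 to 2 higher and 2 to 8 lower from caput to cauda (8 without medium-low fertility caput replicate 2), 2 to 6 lower from corpus to cauda, 0 to 5 higher and 0 to 6 lower in caput by fertility and 0 to 2 in the F test, the last 3 upper values without medium-low fertility caput replicate 3. The cause was not tested. Counts given here without a share of all probe sets are not set against the whole array. Such a count does not show whether the members or all probe sets moved. All 15 member calls were lost under some alternative, since the 2-fold rule removes each, and 6 were lost without some single array. The call of CD5 was also lost with array medians subtracted, quantile normalization and cyclic loess (limma adjusted p = 0.0875, 0.116 and 0.199).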
